A study of Mus musculus with 12 samples.

Results

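Alternative splice acceptors are places where the spliceosome can end an intron at either of 2 nearby 3′ splice sites, so that the stretch of sequence between them is kept in the mRNA or removed with the intron. The members described here are all nodes of type AA (alternative acceptor) in the Whippet splicing table with a numeric value in both groups: 1594 nodes of 115403 nodes of all types, in 1348 genes. By the length of the stretch, 389 nodes were of 3 nucleotides, 615 were of other multiples of 3, and 590 had a length that shifts the reading frame where the stretch lies in coding sequence. For comparison, the same table holds 1280 alternative donor nodes.

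The RNA came from OT-I CD8+ T cells, which carry a transgenic T cell receptor for an ovalbumin peptide and, by the study's methods, lack Rag1 or Rag2. In the Ag group (5 libraries) the cells had been transferred into C57BL/6J recipients that received the peptide antigen with rat control IgG. In the Ag+Costim group (5 libraries) the recipients received the peptide with agonist antibodies to the costimulatory receptors CD134 (OX40) and CD137 (4-1BB). The Naive group (2 libraries) was OT-I cells of untransferred mice. The labels give 4 days to harvest of spleen and lymph nodes, the study's methods give a slightly earlier time and mice of both sexes from young to fully adult, and the transferred cells were sorted for CD8, CD45.1, Vα2 and Vβ5. The labels do not say whether a library is 1 mouse or a pool, while the study describes its RNA libraries as individual biological replicates.

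A 3′ splice site is read from the branch point, a tract of pyrimidines and the AG dinucleotide that ends the intron. SF1 binds the branch point, the U2AF heterodimer binds the tract and the AG, and SF3A and SF3B join with the U2 snRNP. When a second AG follows within a few bases of the first, the choice is made late, at the step of exon ligation. The best known form is the tandem acceptor with 2 AGs spaced by 1 codon, often called a NAGNAG acceptor, which adds or removes a single amino acid without a change of frame. T cell activation is known to change the splicing of many genes, of which Ptprc (CD45) is the classical example.

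The sequences of the coding nodes that the results below turn on are shown here to make the 2 competing sites visible. They are GENCODE vM21 transcript sequences (build mm10), written 5′ to 3′ on the strand of the gene. The node, which is kept only when the upstream acceptor is used, is in capitals, and 12 bases of exon stand on each side of it. The AG at the end of the capitals is the AG of the downstream acceptor. The AG of the upstream acceptor lies in the intron before the capitals and was not read here. The first set are 3-nucleotide nodes.
Irf4, chr13:30753445-30753447, plus strand: ctgccagcccagCAGgttcataactac
Prrc2b, chr2:32219214-32219216, plus strand: ggcacctcagagCAGgggtttaagagc
Cic, chr7:25291052-25291054, plus strand: ctctgctctcagCAGgccaagctcctt
Cdv3, chr9:103356027-103356029, minus strand: agagagccggaaCAGgtacttaaaatg
Gemin5, chr11:58122376-58122378, minus strand: tccgagcccaacCAGagaagaaagaaa
Akap11, chr14:78503023-78503025, minus strand: tctcagtgaaagCAGtaatggtaacag
Sept11, chr5:93173470-93173472, plus strand: ggataagaaaaaTAGtccctggctctg
Tle3, chr9:61401853-61401855, plus strand: gccatcatcgggCAGcagcaactccag
Srsf10, chr4:135863523-135863525, plus strand: cagtcctagaaaCAGtagaccgactgg
Dhx9, chr1:153478979-153478981, minus strand: tcaaagcagaagCAGaaaataattctg

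The second set are longer nodes whose length is a multiple of 3.
Zfp280c, 27 nucleotides, chrX:48578530-48578556, minus strand: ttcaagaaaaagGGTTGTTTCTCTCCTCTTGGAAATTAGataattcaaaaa
Foxp4, 36 nucleotides, chr17:47875689-47875724, minus strand: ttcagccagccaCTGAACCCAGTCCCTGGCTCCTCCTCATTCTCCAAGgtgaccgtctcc
Med12, 24 nucleotides, chrX:101296593-101296616, plus strand: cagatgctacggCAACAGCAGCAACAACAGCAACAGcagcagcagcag
Cbx6, 54 nucleotides, chr15:79828925-79828978, minus strand: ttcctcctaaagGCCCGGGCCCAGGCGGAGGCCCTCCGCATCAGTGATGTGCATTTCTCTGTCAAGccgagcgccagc
Hdac7, 72 nucleotides, chr15:97809968-97810039, minus strand: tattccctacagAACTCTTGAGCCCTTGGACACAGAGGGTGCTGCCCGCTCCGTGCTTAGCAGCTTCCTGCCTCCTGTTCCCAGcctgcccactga

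The members ranged from 1 to 6981 nucleotides with a median of 18, and 225 were longer than 100. A length of 3 was by far the most frequent, with 389 nodes, followed by 4 nucleotides with 55 nodes, 6 with 50 and 21 with 47. In all, 1004 nodes (63.0%) had a length divisible by 3. A sequence could be read for 1586 nodes, of which 1516 (95.6%) ended in AG. By class, 383 of 389 nodes of 3 nucleotides, 601 of 614 nodes of other multiples of 3 and 532 of 583 frame-shifting nodes did so. In the 708 nodes that ended in AG and were long enough to hold it, the window of 20 bases before that AG had a median of 65% C or T (quartiles 60% and 75%). By position, 1272 nodes lay in coding sequence, 256 in 5′ UTRs and 28 in 3′ UTRs.

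Use of the upstream acceptor was first taken from Psi, which Whippet estimates as the proportion of transcripts that keep the node, and for which the table gives 1 value for Ag and 1 for Ag+Costim and none for Naive. Psi therefore has no replicate check and no test here. The 3-nucleotide nodes were the most evenly shared between their 2 acceptors, with a median Psi of 0.676 in Ag (quartiles 0.390 and 0.859) and 0.676 in Ag+Costim. The medians were 0.846 in Ag and 0.829 in Ag+Costim for other multiples of 3, and 0.826 and 0.830 for frame-shifting nodes. Psi was above 0.95 in both groups at 6.68% of 3-nucleotide nodes, at 23.9% of other multiples of 3 and at 25.4% of frame-shifting nodes, against 47.9% of all nodes. Coding nodes had a median Psi of 0.814 in Ag and nodes in 5′ UTRs one of 0.575.

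Among 3-nucleotide nodes, the median Psi differed with the base before the AG, with wide overlap except for GAG. The 279 nodes that read CAG had a median Psi of 0.588 in Ag (quartiles 0.365 and 0.808) and 0.600 in Ag+Costim. The 33 nodes that read TAG were at 0.767 (quartiles 0.440 and 0.894) and 0.791, and the 59 that read AAG were at 0.843 (quartiles 0.671 and 0.941) and 0.875. The 12 that read GAG were at 0.981 and 0.993, so that for them the upstream site was nearly always used. GAG is known as the weakest form of the acceptor, and here the letters in capitals are those of the downstream, competing site. The medians of the 4 forms had the same order in both groups, and no test was run on them.

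Between the groups, 235 of the 1594 members (14.7%) had a Psi more than 0.05 higher in Ag+Costim than in Ag, and 248 (15.6%) had one more than 0.05 lower. Over all nodes the shares were 12.7% higher and 6.44% lower. The members were thus divided almost evenly between rises and falls, with a median difference of 0.000125, while the whole table held more rises than falls. Alternative donors gave 16.2% higher and 17.7% lower, close to the acceptors. A difference past 0.1 was found at 13.1% of the acceptors and at 7.39% of all nodes.

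The 3-nucleotide nodes passed 0.05 most often, at 20.8% higher and 19.3% lower. For other multiples of 3 these shares were 11.9% and 14.6%, and for frame-shifting nodes 13.7% and 14.1%. The classes also differed in their level of Psi: 91.5% of the 3-nucleotide nodes, but 70.1% and 67.5% of the other classes, had a Psi between 0.05 and 0.95 in at least 1 group. Among nodes in that range, the share past 0.05 in either direction was 43.8% for 3 nucleotides, 37.8% for other multiples of 3 and 41.2% for frame-shifting nodes, against 39.8% for all nodes. Of the nodes that read CAG 45.5% were past 0.05, of those that read TAG 45.5%, of those that read AAG 20.3%, and of the 12 that read GAG none.

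**Figure D1:**
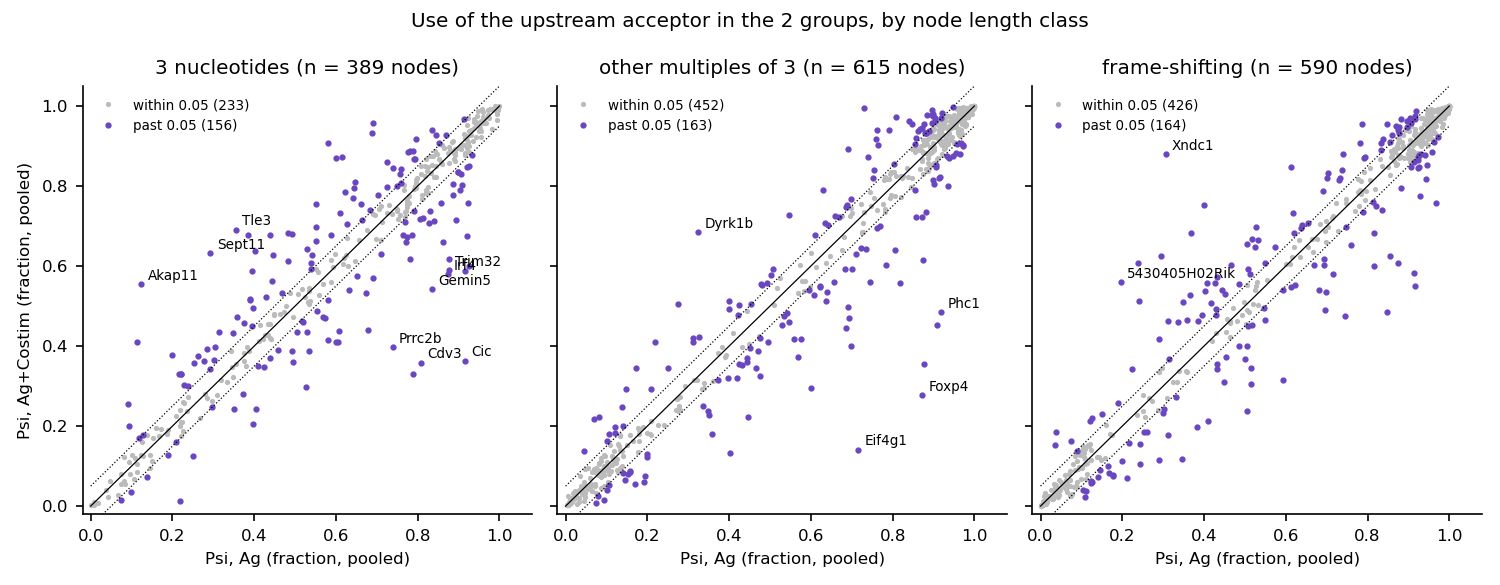
Psi (use of the upstream acceptor, a fraction, 1 pooled value per group) in Ag on the horizontal axis and in Ag+Costim on the vertical axis, 1 point per acceptor node, in 3 panels by node length. The dotted lines mark a difference of 0.05, past which lay 156 of 389, 163 of 615 and 164 of 590 nodes, on both sides of the diagonal.

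**Figure D2:**
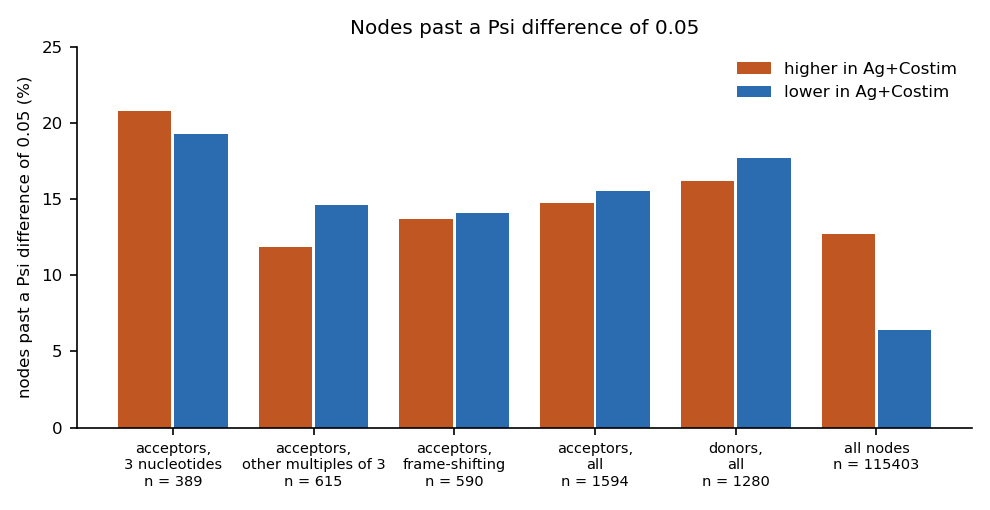
Percent of nodes whose pooled Psi differed by more than 0.05, higher (orange) or lower (blue) in Ag+Costim, for the 3 length classes of acceptors, all acceptors, all donors and all nodes. The 3-nucleotide acceptors reached 20.8% and 19.3%, and only the bars for all nodes were far apart, at 12.7% and 6.44%.

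Replicates were available from a second measure, the deposited transcript counts. For each member, the transcripts of GENCODE vM21 that include the node and those that skip it were summed in every library, and the share of the including transcripts, scaled for transcript length, was taken as the use of the upstream acceptor. A fraction from this measure is called a share below, and Psi is always the pooled value. Of the 1594 members, 1576 had transcripts of both kinds, 981 had a pair of transcripts that differ at that acceptor alone, and 1298 passed the filter on low counts. The other members have a share that also takes in other differences between the transcripts. Across the 1298 tested members, the mean share in Ag and Psi in Ag had a Spearman correlation of 0.757, and the differences between the groups one of 0.194. Which Ag libraries entered Psi is not given, so both measures may share reads, and genes are not independent replicates. Of the 428 tested members past a Psi difference of 0.05, the share moved the same way in 263 (61.4%). The SD of the share between libraries had a median of 0.0732 in Ag and 0.0720 in Ag+Costim, larger than the median Psi difference of 0.0292 in size.

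As a whole the share moved little. Its mean over 366 nodes of 3 nucleotides was 0.583 ± 0.010 in Ag (SD, n = 5) and 0.567 ± 0.0047 in Ag+Costim (n = 5). For 479 nodes of other multiples of 3 it was 0.588 ± 0.010 and 0.570 ± 0.0063, and for 418 frame-shifting nodes 0.572 ± 0.0056 and 0.566 ± 0.010. The 2 Naive libraries were at 0.562 and 0.575, at 0.579 and 0.582, and at 0.561 and 0.571. The libraries of the 2 stimulated groups overlapped in the 3-nucleotide and frame-shifting classes, with lows of 0.572 and 0.565 in Ag and highs of 0.573 and 0.574 in Ag+Costim. In the remaining class the lowest Ag library stood at 0.577 and the highest Ag+Costim library at 0.577. No test was run on these means.

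Irf4, a transcription factor induced through the T cell receptor that is needed for the expansion of effector CD8+ T cells, held a 3-nucleotide node in its coding sequence. Psi was 0.873 in Ag and 0.581 in Ag+Costim. The transcript share was 1.00 in every Ag library. In the Ag+Costim libraries it was 0.683, 0.818, 0.459, 0.370 and 0.384. The groups did not overlap, and both measures were lower with costimulation. The event test gave an adjusted p of 0.128 (edgeR quasi-likelihood test, Benjamini-Hochberg over all events), so the difference did not pass there. It did pass with only the libraries of both groups (adjusted p = 0.0287), without either Naive library (0.0311 and 0.0310), with limma (0.00573) and with DESeq2 (4.19e-09). It did not pass without the filter on low counts (0.144), with any covering or spanning transcript (0.110), with the transcript pair (0.144) or with the replicate block (0.581). The Naive libraries were at 1.00 and 0.290, farther apart than any pair of Ag+Costim libraries. Irf4 itself rose by 1.79 ± 0.25 (log2 fold change ± SE, adjusted p = 4.85e-05), and the 2 Irf4 transcripts held as few as 31 counts in a library, against at most 1715.

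Prrc2b, an RNA-binding protein with a proline-rich coiled coil, had a Psi of 0.739 in Ag and 0.398 in Ag+Costim at its 3-nucleotide node. Its share was 0.891, 0.880, 0.736, 0.696 and 0.851 in Ag, and 0.269, 0.374, 0.432, 0.00431 and 0.278 in Ag+Costim. These groups did not overlap and moved as Psi did, with an adjusted p of 0.574. The Naive libraries, at 0.00619 and 0.830, spanned almost the whole scale. No pair of Prrc2b transcripts differs at the acceptor alone. Gemin5, which binds snRNAs for the assembly of snRNPs, had a Psi of 0.834 and 0.542. Its share was 0.789 ± 0.279 in Ag and 0.519 ± 0.135 in Ag+Costim (SD, n = 5 each), with overlap (adjusted p = 0.662). Prrc2b and Gemin5 passed with DESeq2 (adjusted p = 0.0465 and 0.0208) but not with limma (0.355 and 0.367).

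The 2 measures went apart at Cdv3, a gene named for carnitine deficiency in mouse heart. Psi was 0.808 in Ag and 0.358 in Ag+Costim. The share was 0.525, 0.394, 0.327, 0.426 and 0.712 in Ag, and between 0.989 and 1.00 in all 5 Ag+Costim libraries. It was thus higher with costimulation without overlap while Psi was lower, and the adjusted p was 0.0940. The pair of Cdv3 transcripts that differ at this acceptor alone gave means of 0.425 in Ag and 0.989 in Ag+Costim (adjusted p = 0.143). The Cdv3 difference passed with only the libraries of both groups (0.0482), with limma (0.0212) and with DESeq2 (1.54e-08). It depends on the transcripts counted: with any covering or spanning transcript its log2 ratio was 0.92 (adjusted p = 0.771) in place of 8.30.

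Other 3-nucleotide nodes had large Psi differences that the transcript counts did not show. Cic, a transcriptional repressor of the ERK pathway, had the largest fall of its class, from a Psi of 0.916 in Ag to 0.364 in Ag+Costim. Its share was at most 0.0389 in every library. Akap11, an anchor of protein kinase A, had the largest rise, from 0.124 to 0.554, and its share was at most 0.0383 in every library. Sept11, a septin, rose in Psi from 0.293 to 0.633 at a node whose 2 matched transcripts held only 27 to 300 counts. Tle3, a corepressor of the Groucho family, went from 0.355 to 0.691, with a share of 0.885 ± 0.177 in Ag and 0.957 ± 0.0177 in Ag+Costim. None of these 4 passed the event test, with adjusted p from 0.863 to 0.979. The same holds for Trim32, Glcci1, Myo18a and Cap1, the remaining 3-nucleotide nodes among the 6 largest Psi differences in each direction (adjusted p from 0.569 to 1.00). The mean shares of Trim32, Glcci1 and Cap1 moved against Psi, and that of Myo18a moved with it. In the event test the log2 ratio of Ag+Costim over Ag was -2.44 for Trim32, 0.094 for Cap1, -1.11 for Myo18a and -1.36 for Tle3. Each had the opposite sign to the change in the mean share, so no direction of the share is established for them. At Glcci1 the mean share went from 0.361 in Ag to 0.128 in Ag+Costim while Psi rose.

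Among longer nodes, the largest fall in Psi was at Foxp4, a forkhead factor of the family of Foxp1, from 0.873 in Ag to 0.278 in Ag+Costim over a coding stretch of 36 nucleotides. Its share was 0.00 in 4 Ag libraries and 0.131 in the fifth, and 0.0691 to 0.274 in Ag+Costim. The share was low in both of these groups (adjusted p = 0.604, and 0.0470 with DESeq2), and the Naive libraries were at 0.856 and 0.00. The mean Foxp4 share moved against Psi, from 0.0262 in Ag to 0.133 in Ag+Costim. Eif4g1, the scaffold of the cap-binding complex of translation, fell in Psi from 0.716 to 0.141 at a node of 60 nucleotides in the 5′ UTR. Its share was 0.00 in all 5 Ag+Costim and both Naive libraries. In Ag 1 library was at 0.867 and the other 4 were at most at 0.0967 (adjusted p = 0.357, 0.0357 with limma and 9.11e-06 with DESeq2). Phc1, a Polycomb protein, fell from 0.919 to 0.485 at a node of 24 nucleotides, and no count was assigned to its skipping transcript in any library, so it was not tested.

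The largest rise in Psi over all lengths was at a frame-shifting node of 32 nucleotides in a 5′ UTR, at chr7:102071187-102071218. The table names it Xntrpc, and the annotation places it in Xndc1. Psi was 0.306 in Ag and 0.881 in Ag+Costim. The share was 0.292, 0.258, 0.431, 0.376 and 0.339 in Ag, and 0.636, 0.687, 0.570, 0.705 and 0.619 in Ag+Costim. The groups did not overlap and both measures rose, but the adjusted p was 0.185. No pair of its transcripts differs at this acceptor alone. The other large rises were at the long noncoding RNA 5430405H02Rik (0.196 to 0.560, 286 nucleotides) and at the kinase gene Dyrk1b (0.324 to 0.686, 120 nucleotides), whose shares overlapped between the groups (adjusted p = 0.881 and 0.797). The mean Dyrk1b share moved against Psi, from 0.272 in Ag to 0.0754 in Ag+Costim, and that of 5430405H02Rik moved with it, from 0.335 to 0.504.

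**Figure D3:**
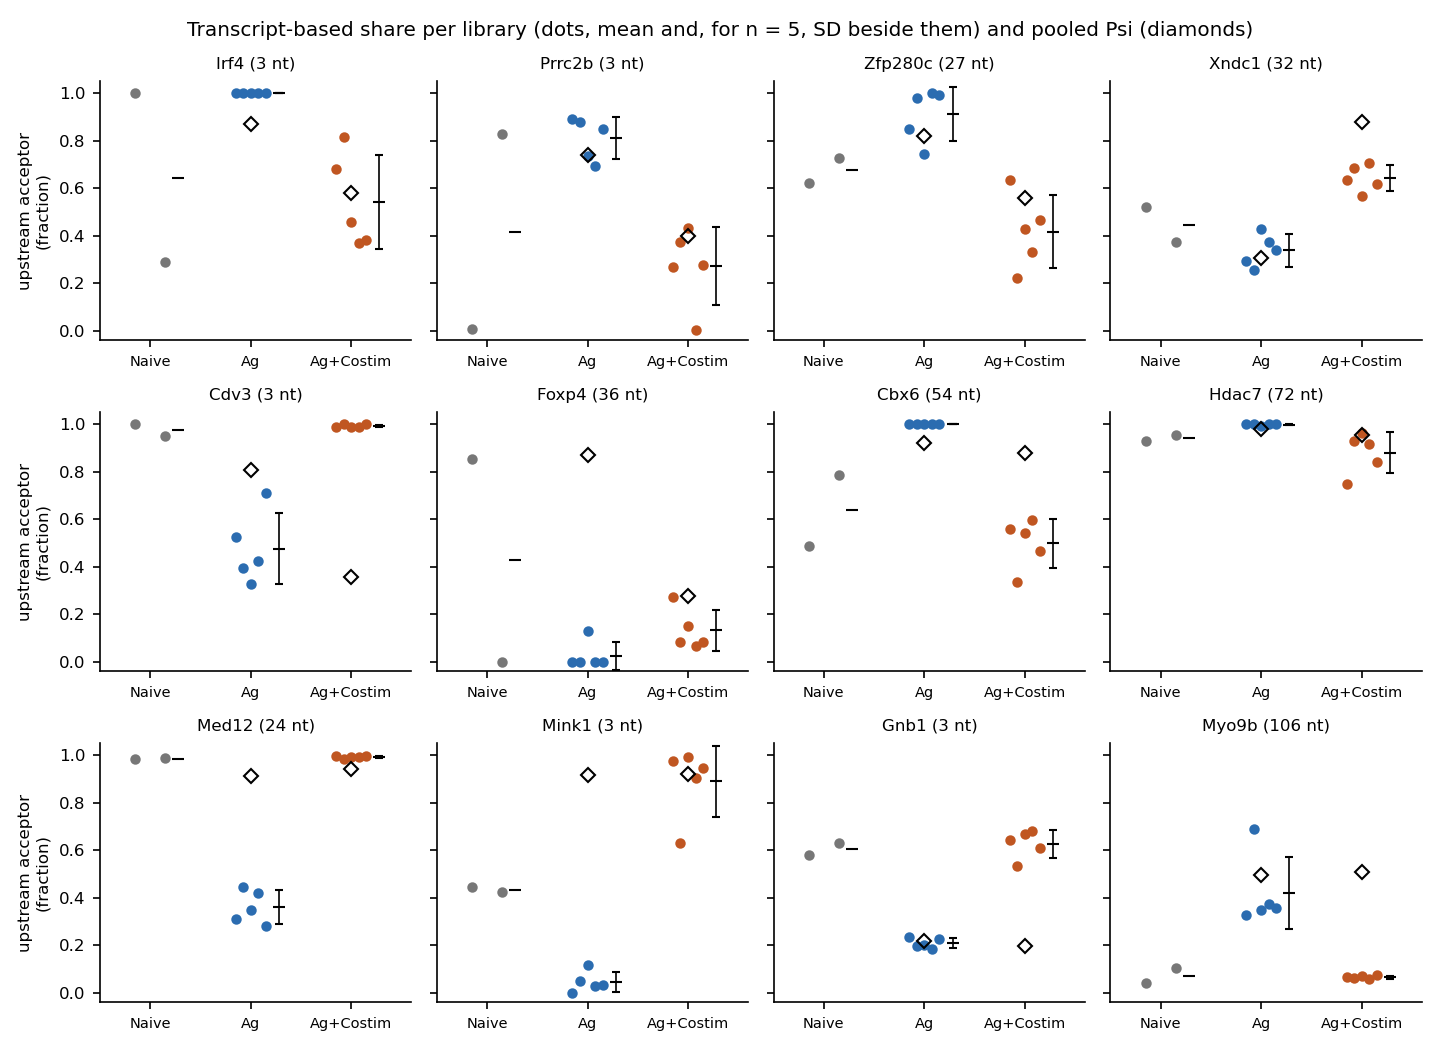
Transcript-based share of the upstream acceptor (fraction, vertical axis) in each library of Naive (grey, n = 2), Ag (blue, n = 5) and Ag+Costim (orange, n = 5) for 12 members, with the mean and, for n = 5, the SD beside the dots and pooled Psi as open diamonds. In Irf4, Prrc2b, Zfp280c and Xndc1 dots and diamonds moved the same way, in Cdv3 they moved in opposite ways, and in Med12, Mink1, Gnb1 and Myo9b the dots moved while the diamonds stayed within 0.05.

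The event test asked which members changed the share between Ag+Costim and Ag beyond the spread of the libraries. Of 1298 members tested, 5 were called higher and 8 lower at an adjusted p below 0.05 (edgeR), in 11 genes. Over all 9739 tested events of 4 types, 0.216% were called higher and 0.205% lower. At an unadjusted p below 0.05 there were 125 members (9.63%, against 8.32% of all events). By length, the calls were 3 of 373 nodes of 3 nucleotides, 7 of 493 of other multiples of 3, and 3 of 432 frame-shifting nodes. The counts depend on the tool: limma called 21 members and DESeq2 150, and leaving out 1 library gave 6 to 14. The share of all events called is given here only for the main test, so these counts cannot be set against it. The calls rest on the estimated counts of whole transcripts.

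1 called member also passed a Psi difference of 0.05 in the same direction. Zfp280c, a zinc finger gene on the X chromosome, had a coding node of 27 nucleotides with a Psi of 0.819 in Ag and 0.558 in Ag+Costim. The share was 0.850, 0.982, 0.743, 1.00 and 0.992 in Ag and 0.634, 0.224, 0.429, 0.334 and 0.466 in Ag+Costim. All Ag libraries lay above all Ag+Costim libraries (adjusted p = 0.0369). The Naive libraries, at 0.624 and 0.728, lay below every Ag library, 1 within and 1 above the range of Ag+Costim. The call was kept only without Ag replicate 3 or Ag replicate 4, and the adjusted p without 1 library ranged from 0.0274 to 0.108. With only the libraries of both groups the Zfp280c call was lost as well (adjusted p = 0.0522). Zfp280c has no pair of transcripts that differ at the acceptor alone, so its share also takes in other differences between them.

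The other calls moved in the share while Psi differed by less than 0.05. Cbx6, a chromobox protein of the Polycomb complex, had no count of skipping transcripts in any Ag library. In Ag+Costim its share was 0.561, 0.338, 0.541, 0.598 and 0.465 (adjusted p = 0.00543), and Psi was 0.921 and 0.880. The same call came from the pair of Cbx6 transcripts that differ at this acceptor alone (adjusted p = 0.00595), and it held without any single library. Hdac7, a class IIa histone deacetylase of T cells, had a share of 0.999 ± 0.0028 in Ag and 0.881 ± 0.0857 in Ag+Costim (adjusted p = 0.0359). Psi was 0.980 and 0.954, lower in Ag+Costim as well. The pair of Hdac7 transcripts gave 1.00 in Ag and 0.604 ± 0.256 in Ag+Costim (adjusted p = 0.0334). The Hdac7 call on all transcripts was lost on leaving out any library but Ag replicate 3, with an adjusted p of up to 0.103, and with only the libraries of both groups (0.0520).

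Med12, a subunit of the kinase module of Mediator, had the smallest adjusted p of all members (0.000716). Its share was 0.310, 0.446, 0.350, 0.420 and 0.281 in Ag and between 0.984 and 0.999 in Ag+Costim, at a node of 24 nucleotides that consists of CAA and CAG triplets. Psi was 0.912 and 0.941. Mink1, a kinase of the germinal centre family, had a share of 0.0460 ± 0.0439 in Ag and 0.890 ± 0.149 in Ag+Costim (adjusted p = 0.0290), with a Psi of 0.918 and 0.920. Myo9b, a myosin with a RhoGAP domain, had a share of 0.420 ± 0.152 in Ag and 0.0664 ± 0.00635 in Ag+Costim (adjusted p = 0.0284), with a Psi of 0.498 and 0.510. Mink1 and Myo9b have no pair of transcripts that differ at the acceptor alone. The Med12 pair had no counts in Ag, and its share was 1.00 in both Naive libraries and at least 0.999 in Ag+Costim. The Med12 share in Ag thus rests on transcripts that differ elsewhere as well. Without 1 library the adjusted p ranged from 0.00038 to 0.0054 for Med12, from 0.0313 to 0.0988 for Mink1 and from 0.0284 to 0.0816 for Myo9b, so that the last 2 calls were each kept in only 4 of 12 such fits.

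Gnb1, the β subunit of heterotrimeric G proteins, had a share of 0.209 ± 0.0207 in Ag and 0.628 ± 0.0586 in Ag+Costim at a 3-nucleotide node in the 3′ UTR (adjusted p = 0.00572). Its pair of transcripts gave 0.343 and 0.418 (adjusted p = 0.832), and Psi was 0.219 and 0.1996. Trappc6a, Limd2 and U2af1l4 were called with small differences. Mean shares in Ag and Ag+Costim were 0.931 and 1.00 for Trappc6a, 0.964 and 0.921 for Limd2, and 0.998 and 0.992 for U2af1l4 (adjusted p = 0.0284, 0.0392 and 0.0359). Without 1 library their adjusted p reached 0.0766, 0.104 and 0.0900. The transcripts matched at the U2af1l4 node held 2978 to 12625 counts in a library. That is more than the gene total, at 17.9 to 33.6 CPM, so counts beyond those assigned to U2af1l4 enter this share.

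**Figure D4:**
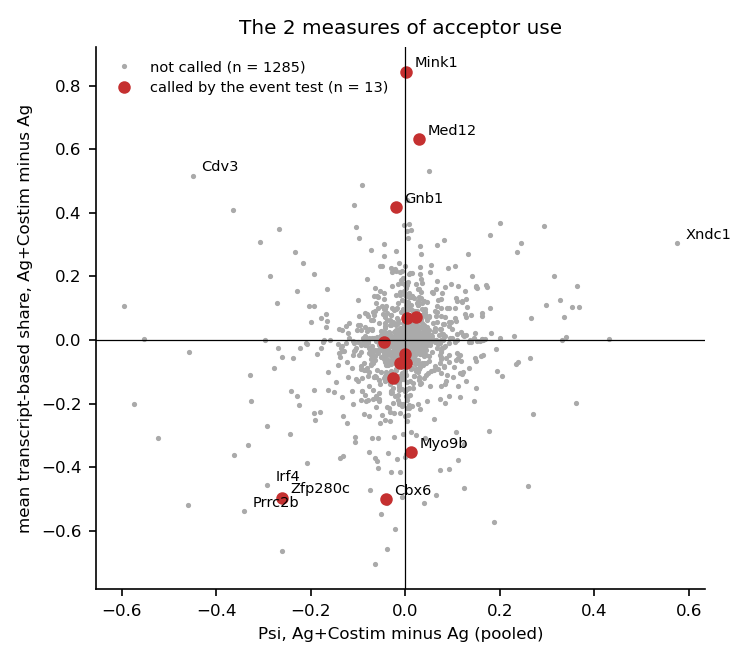
Difference in pooled Psi (horizontal axis) and in the mean transcript-based share (vertical axis), Ag+Costim minus Ag, for the 1298 tested members, with the 13 called by the event test in red. All called members but Zfp280c lay within 0.05 of a Psi difference of 0, and Cdv3 lay at -0.45 in Psi and at 0.517 in share.

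With only the transcripts that have a partner differing at the acceptor alone, an analysis chosen after the data had been seen, 830 members could be tested and 4 were called lower, of which 2 (Cbx6 and Hdac7) are among the 13. The other two were Dhx9, an RNA helicase, and Abca7, a lipid transporter. The Dhx9 pair had a share of 1.00 in every Ag library and of 0.190 ± 0.0321 in Ag+Costim (adjusted p = 0.0060), but Psi at this 3-nucleotide node was higher in Ag+Costim, at 0.787 and 0.888. The Abca7 pair went from 1.00 in Ag to 0.473 ± 0.288 in Ag+Costim (adjusted p = 0.036), and there too Psi was higher, at 0.548 and 0.727.

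Against the 2 Naive libraries, for which no Psi exists, 2 members were higher and 5 lower in Ag (all events: 0.103% and 0.349%). In Ag+Costim 2 were higher and 3 lower (all events: 0.0924% and 0.318%). These comparisons share the Naive libraries, and leaving out either of them kept only 1 or 2 of the 7 calls of Ag and 3 of the 5 calls of Ag+Costim. At an unadjusted p below 0.05 there were 111 and 97 members (8.55% and 7.47%, against 8.27% and 9.08% of all events).

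Nmral1, a sensor of the NADPH level, had no count of including transcripts in Naive. Its matched transcripts held only 58 and 122 counts there, against 746 to 1989 in Ag and 1442 to 1915 in Ag+Costim. Its share was 0.608 ± 0.186 in Ag (adjusted p = 0.0318) and 0.567 ± 0.185 in Ag+Costim (adjusted p = 0.0371), while Psi was only 0.111 and 0.0673. Tpx2, a spindle assembly factor, had a share of 1.00 in Naive, 0.802 ± 0.0654 in Ag (adjusted p = 0.00571) and 0.742 ± 0.0906 in Ag+Costim (adjusted p = 0.00363). The Naive libraries held only 132 and 164 counts behind the Tpx2 share, against 1956 to 4862 in Ag and 12497 to 17901 in Ag+Costim. Eapp, an E2F-associated protein, was at 0.996 and 0.999 in Naive, 0.820 ± 0.0884 in Ag (adjusted p = 0.00776) and 0.687 ± 0.149 in Ag+Costim (adjusted p = 0.00384). The Nmral1 call was kept in only 5 of 12 fits without 1 library for Ag (adjusted p up to 0.142) and in 3 of 12 for Ag+Costim (up to 0.155). The Tpx2 calls held without any single library, and the Eapp call of Ag had an adjusted p of 0.0665 without Naive replicate 2. With only the libraries of both groups, the 3 calls of Ag were lost (adjusted p = 0.182 for Nmral1, 0.0709 for Tpx2 and 0.0595 for Eapp). The pair of Tpx2 transcripts that differ at the acceptor alone gave 1.00 in the 1 Naive library with counts, 0.684 ± 0.154 in Ag (adjusted p = 0.142 against Naive) and 0.243 ± 0.0807 in Ag+Costim (0.0358 against Naive, 0.152 against Ag). The U2af1l4 node, whose share takes in counts beyond those of the gene, was also called in both, at 1.00 in both Naive libraries (adjusted p = 0.00776 and 0.00141). Trappc6a was called in Ag+Costim alone (adjusted p = 0.0485), a call lost without any 1 library. Nmral1, Tpx2 and Eapp were called against Naive in both stimulated groups, and none of them was called between Ag and Ag+Costim (adjusted p from 0.804 to 0.986), which does not show that they were alike.

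Med12, Cbx6 and Gnb1 showed another order of the groups. Med12 was at 0.983 and 0.989 in Naive, near the Ag+Costim libraries, and lower in Ag (adjusted p = 0.00776). Cbx6 was at 0.490 and 0.785 in Naive and at 1.00 in Ag (adjusted p = 0.0156). Gnb1 was at 0.579 and 0.631 in Naive and at 0.209 in Ag (adjusted p = 0.0292). The pair of Gnb1 transcripts that differ at the acceptor alone gave means of 0.418 in Naive and 0.343 in Ag (adjusted p = 0.911). All 3 calls of Ag against Naive were lost on leaving out either Naive library and with only the libraries of both groups. The Gnb1 call was also lost without Ag replicate 2, Ag replicate 3 or Ag+Costim replicate 1. None of the 3 was called between Ag+Costim and Naive (adjusted p from 0.786 to 0.981).

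In the genes of T cell signalling and fate that were listed for this work, 18 members lay in 11 of 64 genes. Psi was more than 0.05 higher in 3 of them and lower in 2, with a median difference of 0.000746 over the 18. These shares are near those of all acceptors (14.7% and 15.6%). The rises were at Nfatc2, a calcium-dependent activator of cytokine genes (0.785 to 0.955, a node of 520 nucleotides), at Foxp1, which keeps T cells quiescent (0.764 to 0.904, 96 nucleotides), and at Traf1, an adaptor of CD137 (0.314 to 0.369, 31 nucleotides in the 5′ UTR). The falls were at Irf4 and at Eomes, a T-box factor of effector and memory CD8+ T cells (0.964 to 0.880, 57 nucleotides). Except for Irf4, the shares of these genes overlapped between the groups, and the means of Ag and Ag+Costim were 0.983 and 0.987 for Nfatc2, 0.991 and 0.986 for Foxp1, 0.332 and 0.347 for Traf1, and 0.787 and 0.772 for Eomes. None of the 5 passed the event test (adjusted p from 0.128 to 0.979).

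In the families of splicing factors and RNA helicases chosen by symbol, 32 members lay in 30 genes, 2 with a Psi more than 0.05 higher and 5 lower, with a median difference of -0.0048. Against 14.7% and 15.6% of all acceptors, the share of lower members was the same and that of higher members smaller. The lower ones were Hnrnpr (0.351 to 0.244), Dhx30 (0.694 to 0.618), Rbm43 (0.821 to 0.750), Prpf19 (0.158 to 0.0876) and Srsf10 (0.792 to 0.737), and the higher ones Prpf6 (0.513 to 0.580) and Dhx9. Srsf10, an SR-like splicing regulator, had a share of 0.597 ± 0.0435 in Ag and 0.582 ± 0.0413 in Ag+Costim (adjusted p = 0.961). Prpf6, a protein of the tri-snRNP, had a share of at most 0.00801 in Ag, and in Ag+Costim 3 libraries were between 0.164 and 0.202 while 2 were at most 0.00430 (adjusted p = 0.567). The node placed in U2af1l4, a paralogue of the small U2AF subunit that binds the acceptor AG, was the 1 member of these families that was called, with the small difference given above. This 90-nucleotide node is skipped by 1 of 18 matched transcripts. As counts beyond those of the gene enter its share, the call cannot be assigned to U2af1l4 itself.

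The host genes of the members changed often in total expression. Of 1344 host genes tested, 544 (40.5%) rose and 405 (30.1%) fell in Ag+Costim against Ag at an adjusted p below 0.05 (edgeR on gene counts), against 26.6% and 26.5% of all 18817 genes. The host genes were also more highly expressed, with a median log2 CPM of 5.44 against 3.09. Under upper-quartile scaling the split was 461 and 505, with the median of all genes shifted from -0.05 to -0.24 (log2). In bulk RNA a smaller share of cells that express a gene and less of its RNA per cell cannot be told apart. Host genes of members with a Psi more than 0.05 lower had a median log2 fold change of 0.37, those with a higher Psi 0.17, and the rest 0.07. Their median log2 CPM was 4.79, 4.78 and 5.78, so members past 0.05 lay in genes with fewer reads.

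Of 38 genes for the use of 3′ splice sites, 26 rose and 2 fell in Ag+Costim against Ag, with a median log2 fold change of 0.54 against -0.05 for all genes. Under upper-quartile scaling 21 rose and 5 fell. Among 18 factors of branch point and acceptor recognition 13 rose and 1 fell. U2af2, the large U2AF subunit that binds the pyrimidine tract, was at 16.7 ± 2.19 CPM in Ag and 79.2 ± 20.2 in Ag+Costim (mean ± SD over 5 libraries), and its log2 fold change was 2.25 ± 0.16 (SE). U2af1, its partner at the AG, rose by 1.96 ± 0.086 and Sf1 by 1.60 ± 0.10. Of the SF3 subunits, Sf3a2 rose by 2.17 ± 0.093 and Sf3b3 by 1.54 ± 0.095, while Sf3b6 fell by 0.36 on the log2 scale. Of these 6 changes, the largest adjusted p was 0.0040, that of Sf3b6.

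Of 5 factors of acceptor choice and exon ligation, 4 rose, led by Dhx38 (Prp16) with a log2 fold change of 1.77 ± 0.12 (adjusted p = 8.29e-08) and Dhx8 (Prp22) with 1.09 ± 0.086. Slu7, which holds the distance between branch point and acceptor, was at 149.8 ± 26.8 CPM in Ag and 123 ± 9.62 in Ag+Costim and did not pass (adjusted p = 0.0593). Among 10 binders of pyrimidine or uridine tracts 5 rose and 1 fell: Ptbp1, a repressor of exons with such tracts, rose by 1.49 ± 0.091, and Pcbp2 fell by 0.38 on the log2 scale. Among 5 binders of exonic enhancers 4 rose, among them Srsf1 by 1.74 ± 0.17 and Tra2b by 1.57 ± 0.096. In Ag against Naive, 12 of the 38 rose and 16 fell (all genes: 24.2% and 22.5%), and in Ag+Costim against Naive 29 rose and 2 fell (all genes: 26.9% and 25.4%). U2af1, U2af2 and Sf1 were among those lower in Ag than in Naive, with log2 fold changes of -0.85, -1.39 and -0.66. These are gene totals, and their part in the acceptor use above was not tested.

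**Figure D5:**
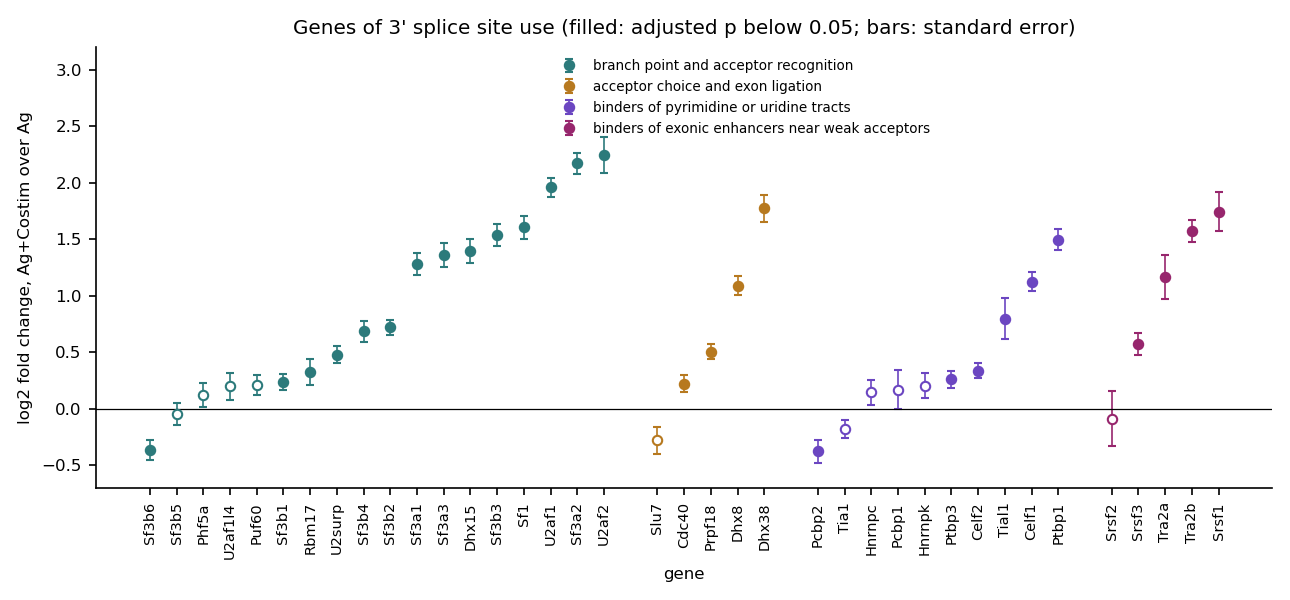
Log2 fold change of Ag+Costim over Ag (edgeR, vertical axis, bars give the standard error) for 38 genes of 3′ splice site use in 4 lists, ordered within each list, with filled points for an adjusted p below 0.05. There were 26 filled points above 0 and 2 below, with U2af2 highest at 2.25.

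The libraries held 24714617 to 46800347 reads, with 72.3% to 76.5% aligned, and Ag replicate 4 was the shallowest. The median number of counts behind a tested member was 859.5 to 1556 in an Ag library, 1673 to 2077.5 in Ag+Costim and 1962 to 1975 in Naive. The T cell genes Cd3d, Cd3e, Cd3g, Cd8a and Cd8b1 summed to 6189 to 7983 CPM in Ag and 3155 to 4296 in Ag+Costim, and Cd4 was at most 2.39 CPM. The 4 B cell markers summed to 101 to 154 CPM in Ag and 21.7 to 54.8 in Ag+Costim, and the 5 erythroid markers to 588 to 6720 and 14.0 to 210. No marker was at 0 throughout a group. The 6 myeloid markers overlapped, at 60.8 to 195 and 83.6 to 140 CPM. The T cell, B cell and erythroid sums did not overlap between the groups, and their part in the values above was not tested.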

How the data were processed

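OT-I CD8+ T cell RNA was measured in 12 libraries (SMART-Seq v4, single reads of 100 bases) in the groups given by the sample labels. Per the labels and the study's methods, reads were aligned to mm10 with HISAT2 2.1.0, sorted with SAMtools 1.9 and assembled with StringTie 2.1.0. The authors deposited expected counts (StringTie estimates) per gene and transcript, which were rounded here. They deposited Psi from Whippet as a fraction, 1 value per group, with an entropy score. The Whippet version is not given in the sources used here. For Psi the study gives n = 5 per group. The deposited percent of aligned reads was taken as it stands. The Psi table also holds the authors' own differences and probabilities, which were not used.

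The members and gene lists were chosen with earlier results of these data known. Nodes were matched to GENCODE vM21 transcripts by exact coordinates. For acceptors this took in transcripts of any gene. Including and skipping counts of each event were tested with edgeR 4.0.16 (quasi-likelihood, 1 term per library and the interaction of inclusion with group, all 12 libraries, at least 10 counts in 5 libraries, Benjamini-Hochberg over 9739 events of 4 types, adjusted p below 0.05). Genes were tested likewise, with TMM scaling. limma 3.58.1 and DESeq2 1.42.0 were alternatives. The edgeR event test and the edgeR gene test, the latter with a variant of TMM scaling, were also run on simulated data. There the event test missed all changes but those of the largest size simulated, and most of these as well. A member that was not called may thus still have changed. Entries without an annotated gene (0.0508% to 0.121% of counts) were left out. By rule, the named members, all in host genes with a mean log2 CPM above 3 for the first 3 kinds, are those called with a Psi difference past 0.05 in the same direction, the 5 largest Psi differences in each direction, the 6 largest in each direction among 3-nucleotide nodes, and members in the listed genes that were called or past 0.05. The other called members and those called from transcript pairs were named after their values were seen. Some of the called members are counted but not reported here by name. Precision is limited by the libraries per group and by how StringTie divides reads between transcripts. The replicate numbers did not pair the samples.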

Additional observations from a re-analysis of the deposited data

Results flagged for a closer look

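Among 172 groups of 5 values examined (read totals, shares of named members and CPM of the splice site genes), 21 had 1 library apart from the others. The rule flags about 1 in 20 groups of independent, normally distributed values. Shares are bounded, several are tied at 0 or 1, and the groups share libraries, so that rate does not hold here and no excess was tested. Ag replicate 4 accounted for 8 of the 21, and it had the fewest reads (24714617, with the next lowest Ag library at 40934460). It stood high in the share of Hnrnpr (0.261), 5430405H02Rik (1.00) and Akap11 (0.0291), low in Puf60 (331 CPM) and Hnrnpk (948 CPM), and high in Srsf1 (158 CPM) and Tra2a (46.1 CPM).

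Ag replicate 2 was high in the share of Eif4g1 (0.867) and Myo9b (0.690) and low in that of Foxp1 (0.959). Ag replicate 3 was high for Foxp4 (0.131) and low for Hdac7 (0.994) and Klrk1 (0.150). In Ag+Costim, replicate 1 was low for Eomes (0.361) and high for Akap11 (0.0383). Replicate 2 was low for Mink1 (0.630) and Foxp1 (0.938) and high in U2af2 (114 CPM) and Ptbp3 (117 CPM). Replicate 3 was low for Cap1 (0.407).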

How the results depend on the processing

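The number of members called between Ag+Costim and Ag was 13, 150 with DESeq2 (54 higher, 96 lower), 21 with limma (6 and 15), 4 with only the transcript pairs and 6 to 14 without 1 library. For Ag against Naive it was 7, 110 with DESeq2, 16 with limma, 0 with only the libraries of both groups (91 at an unadjusted p below 0.05), 3 with the pairs and 6 to 11 without 1 library. For Ag+Costim against Naive it was 5, 91 with DESeq2 and 3 to 10 without 1 library. The share of all events called under each alternative is not given here, so these counts have no background beside them. With the replicate number as a block, edgeR called 0, 0 and 0 members in the 3 comparisons (121, 101 and 86 at an unadjusted p below 0.05). Same-numbered libraries of Ag and Ag+Costim had correlations from -0.0216 to 0.0150, and no library correlated best with its own number, so the block has no basis in these data. Abca7 reversed with the pair of transcripts (log2 ratio -11.59). A Psi threshold of 0.1 left 209 members in place of 483. The cause of these changes was not tested. The count of host genes called stayed between 910 and 987. The mean shares of all 3 length classes stayed lower in Ag+Costim with counts not scaled for length, without the filter and with any covering or spanning transcript. No library was left out for these means. For frame-shifting nodes the difference was -0.0064 to -0.0036, against an SD of 0.010 in Ag+Costim. With any covering or spanning transcript their library medians averaged 0.651 in Ag and 0.654 in Ag+Costim.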
